A study of Mus musculus with 22 samples.

Results

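Amino acid transporters carry free amino acids across the cell surface and across the membranes of lysosomes and other organelles. The genes described here are the lines of the deposited expression table whose gene symbol belongs to the mouse solute carrier families Slc1a, Slc3a, Slc6a, Slc7a, Slc36a, Slc38a or Slc43a, followed by a number. This rule took 61 of 55415 lines. Their levels were measured by RNA-seq as TPM (a transcript abundance corrected for transcript length and scaled to a fixed sum in each library), and 22 of the 61 genes had a mean of at least 1 TPM over the 22 libraries.

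The cells were mpkCCD, an immortalised mouse line of cortical collecting duct origin that is itself a subclone, grown on permeable supports and then kept in a medium without serum and growth factors that contained dexamethasone. Wild-type (WT) mpkCCD cells received no dDAVP (3 libraries) or dDAVP (3 libraries), where dDAVP is desmopressin, which activates the V2 receptor for vasopressin. GFP reporter cells of the clones C1, C11, C43 and C50 were all given dDAVP, and for each clone cells negative and cells positive for GFP were taken as separate fractions of 2 libraries, 16 libraries in all. According to its title the series concerned variation in aquaporin-2 (Aqp2) expression from cell to cell. The labels name more than one dDAVP concentration and duration without assigning them to libraries, and the promoter that drives GFP is not given in the sources used here. Each reporter line is 1 clone, no clone library was made without dDAVP, and nothing in the labels says whether replicates came from separate cultures, so p-values measure only the spread between these libraries, which may be technical.

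Several of these transporters work in pairs or in series. The single-pass protein encoded by Slc3a2, the heavy chain of the CD98 antigen, brings partner light chains to the plasma membrane: Slc7a5 for large neutral amino acids such as leucine, Slc7a6 and Slc7a7 for exchange of cationic against neutral amino acids, and Slc7a11 for exchange of cystine against glutamate. Sodium-coupled carriers such as Slc38a1, Slc38a2 and Slc1a5 load the cell with glutamine, alanine and serine, which the exchangers can then trade for other amino acids. Many of these genes are known targets of the amino acid response, in which the transcription factor Atf4 acts through C/EBP-ATF response elements when amino acids are short. In the kidney most reabsorption of filtered amino acids takes place in the proximal tubule, while cells of the renal medulla are known to accumulate osmolytes such as taurine, which Slc6a6 imports.

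Identity and quality of the libraries were checked first. Of 16 listed principal cell markers, 13 had a mean of at least 1 TPM, whereas Scnn1b (0.36), Kcnj1 (0.07) and Elf5 (0.08) did not. Of the markers of other cell types, 2 of 10 for intercalated cells (Rhcg and Slc4a9), 1 of 10 for the proximal tubule (Lrp2), 0 of 7 for fibroblasts, 0 of 5 for endothelium and 1 of 5 for immune cells (Cd68) reached that mean. The intercalated list summed to 79.9 to 113 TPM in WT libraries, most of it Rhcg, a gene of ammonia transport, and to 1.67 to 11.98 TPM in clone libraries, and the proximal tubule list to 0.94 to 16.8 TPM per library. Sequencing depth cannot be read from TPM, and the number of genes above 0 fell into a set of 10 libraries with 17206 to 20288 and a set of 12 libraries with 23174 to 31393. Replicate 1 of the GFP-negative fraction of C50 stood apart from its partner: 19 of the 22 transporters were lower in it, with a median ratio of 0.579, and 9 of the 22 had their lowest value of all libraries there. The median absolute log2 difference between the pair was 0.771, against 0.1 to 0.282 in the other replicate pairs, so values without this library are given beside the results they changed most. These counts and differences are of the 22 transporters alone and were not made over all genes.

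Promoter sequences are printed for the 4 transporters that held a full element of the amino acid response or of cyclic AMP signalling, the pathway downstream of the V2 receptor, since these are the genes to which the comparisons below refer. RefSeq promoters of the GRCm38.p6 build, each 250 bases before and 50 bases after a transcript start, matched 16 of the 22 genes with 26 windows (the promoters of Slc7a5, Slc38a1, Slc1a5, Slc6a6, Slc6a8 and Slc7a4 were not analysed here). Both strands were searched for TGATGNAAN, the C/EBP-ATF response element, for TGACGTCA, the full cyclic AMP response element, and for its 5-base core TGACG, which lies inside the full element. The first was found in 4 of the 26 windows, which belong to 3 genes, namely Slc1a4, Slc7a7 and Slc7a11, and in 3.95% of 32851 windows of all genes. The full cyclic AMP element was found in 1 of the 26 windows, that of Slc38a6, and in 1.79% of all windows. The core was found in 10 of the 26, which belong to 9 of the 16 genes, and in 20.8% of all windows. Windows of the same gene can overlap, and the core of Slc7a6 is counted in each of its overlapping windows. Windows are shown from 250 bases before to 30 bases after the start, 5′ to 3′ in the direction of the transcript, with the matched element in capitals.
Slc1a4, chr11:20332684-20332963, minus strand: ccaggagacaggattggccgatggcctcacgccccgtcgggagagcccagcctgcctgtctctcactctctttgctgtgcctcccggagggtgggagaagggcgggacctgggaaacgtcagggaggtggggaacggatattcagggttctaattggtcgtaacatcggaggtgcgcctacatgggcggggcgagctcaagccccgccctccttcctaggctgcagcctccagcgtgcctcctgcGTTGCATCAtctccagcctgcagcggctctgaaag
Slc7a11, chr3:50443584-50443863, minus strand: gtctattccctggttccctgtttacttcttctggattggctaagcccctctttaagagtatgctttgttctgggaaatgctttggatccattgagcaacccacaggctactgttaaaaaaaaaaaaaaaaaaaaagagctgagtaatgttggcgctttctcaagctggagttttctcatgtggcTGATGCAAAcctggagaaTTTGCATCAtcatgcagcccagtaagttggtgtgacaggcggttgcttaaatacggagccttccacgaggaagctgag
Slc7a7, chr14:54417673-54417952, minus strand: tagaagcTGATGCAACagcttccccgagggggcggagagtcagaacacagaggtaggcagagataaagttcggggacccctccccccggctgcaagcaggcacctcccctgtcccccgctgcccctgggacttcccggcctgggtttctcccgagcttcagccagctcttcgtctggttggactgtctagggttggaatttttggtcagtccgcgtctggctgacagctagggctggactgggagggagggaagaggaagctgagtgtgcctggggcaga
Slc38a6, chr12:73286598-73286877, plus strand: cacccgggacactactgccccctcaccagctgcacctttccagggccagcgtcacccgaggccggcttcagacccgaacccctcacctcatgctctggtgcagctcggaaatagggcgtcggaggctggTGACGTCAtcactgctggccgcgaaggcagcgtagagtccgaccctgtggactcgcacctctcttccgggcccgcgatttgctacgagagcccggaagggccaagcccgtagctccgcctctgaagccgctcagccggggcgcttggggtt
The element of Slc1a4 begins 5 bases before the transcript start, on the opposite strand. Slc7a11, the cystine carrier, holds a pair of elements, at 66 and 48 bases before the start. The element shown for Slc7a7 begins 243 bases before the transcript start of the printed window and 1 base before another annotated transcript start. The window of that other start holds a further match 141 bases before it. That of Slc38a6 lies 121 bases before its start. A match is a sequence in a window and not a measured binding site, and as given below these genes did not share a direction of change.

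Expression was concentrated in a few genes. Slc3a2 had a mean of 797.9 TPM over 22 libraries, which was 44.5% of the summed mean TPM of the 61 genes. Next on the same per-length scale came the neutral amino acid carrier Slc38a2 (210.0 TPM), the taurine carrier Slc6a6 (197), the cationic amino acid carrier Slc7a1 (99.7), the glutamine carrier Slc1a5 (89.1), Slc38a10, a sodium-coupled family member of the secretory pathway (72.8), and the leucine carrier Slc7a5 (62.8). The remaining genes with at least 1 TPM were Slc7a4 (46.7), Slc7a7 (39.9), Slc38a1 (31.6), Slc7a6 (24.7), Slc38a6 (18.7), Slc38a7 (16.5), Slc6a17 (15.9), Slc6a9 (15.4), Slc1a4 (11.0), Slc7a11 (8.78), Slc43a2 (8.33), Slc38a9 (8.17), Slc6a19 (4.57), Slc6a8 (4.16) and Slc36a1 (1.92). By family, 6 of 15 Slc7a genes, 6 of 11 Slc38a genes, 5 of 19 Slc6a genes, 2 of 7 Slc1a genes, 1 of 2 Slc3a genes, 1 of 4 Slc36a genes and 1 of 3 Slc43a genes were in this set. Slc36a1, a proton-coupled carrier of lysosomes, lay just inside the limit, and the betaine carrier Slc6a12 (0.918), the cationic carrier Slc7a3 (0.911) and the glutamate carrier Slc1a3 (0.802) lay just outside it.

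**Figure D1:**
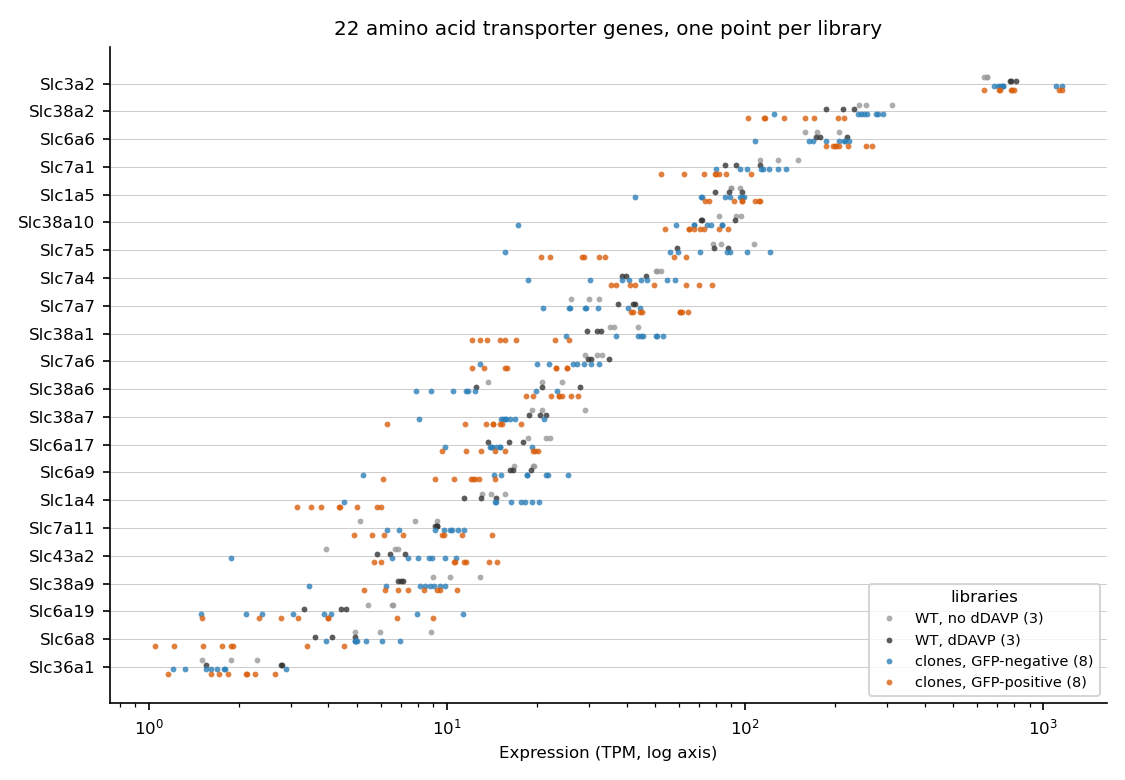
Expression (TPM, log axis) of the 22 amino acid transporter genes with a mean of at least 1 TPM, ordered by mean, with 1 point per library: WT without dDAVP (3), WT with dDAVP (3), GFP-negative clone libraries (8) and GFP-positive clone libraries (8). Slc3a2 lies at 632 TPM or more in every library, and the GFP-positive points of Slc38a1, Slc1a4 and Slc6a8 lie mostly to the left of the others.

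The other 39 genes stayed below a mean of 1 TPM, 16 of them between 0.1 and 1 and 23 below 0.1. The highest value that any of them reached in any library was 3.04 TPM, for Slc1a3, and none was at 0 in all 22 libraries. Slc3a1, the heavy chain of the apical cystine carrier of the proximal tubule, had a mean of 0.592 TPM and ran from 0 to 1.48 TPM. In WT cells it was 0.56, 0.87 and 0.79 TPM without dDAVP and 0.17, 0.86 and 1.02 TPM with it, and the ranges of the groups overlapped. Among the clones the GFP-negative libraries read 0 and 0.53 in C1, 0.28 and 0.85 in C11, 0.5 and 0.25 in C43 and 0.48 and 0.99 in C50, and the GFP-positive libraries 0.23 and 0.37 in C1, 0.67 and 0.4 in C11, 0.43 and 0 in C43 and 1.48 and 1.29 in C50. No direction was shared by the clones at these low values.

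Between the 10 groups the mean of each of the 22 genes varied by 1.72-fold to 5.82-fold, and 15 of the 22 varied at least 2-fold, where the share of all genes was not counted. The smallest span was that of Slc36a1 and the widest that of Slc6a8, the creatine carrier, whose group means ran from 1.13 TPM in GFP-positive C11 to 6.57 TPM in WT cells without dDAVP. Slc38a2, Slc7a1, Slc38a10, Slc38a7, Slc6a17, Slc38a9 and Slc6a8 had their highest mean in WT cells without dDAVP. WT and clone cells differ in derivation, reporter and separation into fractions, which cannot be told apart, so their levels are given side by side and not compared by a test.

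The main comparison asked which transporters differ between cells of the same clone that do and do not show reporter fluorescence under dDAVP. Of the 22 genes, 9 differed between the fractions (limma on log2(TPM + 1) with the clone as a covariate, Benjamini-Hochberg adjusted p under 0.05 over all 13113 genes tested), 40.9% against 35.3% of all genes tested. Lower in GFP-positive cells were 6 genes, the sodium-coupled neutral amino acid carriers Slc38a1, Slc38a2 and Slc1a4, the leucine carrier Slc7a5, the cationic carrier Slc7a1 and the creatine carrier Slc6a8. Higher were 3 genes, the cationic and neutral exchanger Slc7a7, the Slc38 family member Slc38a6 and the Slc7 family member Slc7a4. Among all genes tested 23.2% were lower and 12.1% higher, and the median change was −0.06 on the log2 scale, against 0.00 over the 22 transporters. Adding 1 before taking logs shrinks the changes of genes with low TPM, and in RNA from many cells fewer cells of a type and less RNA per cell cannot be told apart.

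**Figure D2:**
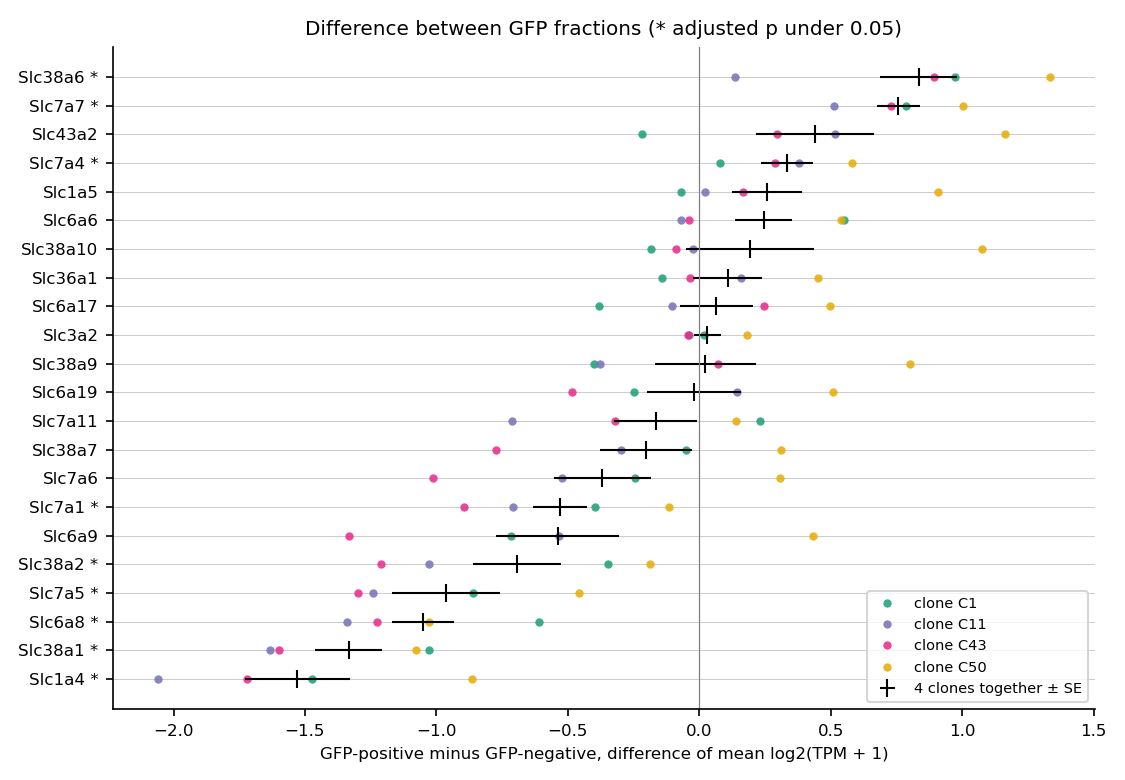
Difference between GFP-positive and GFP-negative cells (mean log2(TPM + 1)) for the 22 transporters, as points for each of the 4 clones and as a black tick with its standard error for the 4 clones together; an asterisk marks genes with a limma adjusted p under 0.05. Each of the 6 genes called lower has its 4 clone points left of 0, each of the 3 called higher has its 4 points right of 0, and C50 lies to the right of the other clones for many genes.

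Slc38a1 and Slc38a2 encode sodium-coupled carriers of glutamine, alanine and other small neutral amino acids. In GFP-negative cells Slc38a1 was 50.4 and 50.7 in C1, 36.9 and 45.5 in C11, 52.9 and 43.7 in C43 and 25.1 and 44.8 in C50 (TPM). In GFP-positive cells it was 25.6 and 23.1 in C1, 12.9 and 12.1 in C11, 13.6 and 17.0 in C43 and 15.1 and 15.7 in C50. Each clone had both positive libraries below both negative ones. Slc38a1 fell by 1.33 on the log2 scale over the 4 clones (SE 0.127, limma adjusted p = 2.47e-06). For Slc38a2 the GFP-negative libraries read 246 and 289 in C1, 239.5 and 276 in C11, 256 and 251 in C43 and 125 and 279.99 in C50, and the GFP-positive libraries 214 and 204 in C1, 117 and 135 in C11, 116 and 103 in C43 and 159 and 171 in C50. Slc38a2 fell by 0.69 on the log2 scale (SE 0.166, limma adjusted p = 0.00456). Its fractions did not overlap in C1, C11 and C43, while in C50 both positive libraries lay between the 2 negative ones. Without C11 or without C43 the fall of Slc38a2 was no longer past the threshold, at −0.58 and −0.52, and without replicate 1 of GFP-negative C50 it was −0.84 (limma adjusted p = 2.08e-05).

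Slc1a4 encodes a carrier of alanine, serine and cysteine. Its GFP-negative libraries read 14.6 and 19.2 in C1, 16.3 and 17.7 in C11, 20.3 and 18.2 in C43 and 4.50 and 14.4 in C50 (TPM), and its GFP-positive libraries 5.83 and 4.99 in C1, 3.13 and 3.5 in C11, 4.38 and 6.0 in C43 and 4.35 and 3.78 in C50. Slc1a4 fell by 1.53 on the log2 scale (SE 0.20, limma adjusted p = 4.04e-05), and no clone showed an overlap of its fractions, although the lower negative library of C50 exceeded the higher positive one by little, and without that library the change was −1.73. The related glutamine carrier Slc1a5 did not pass the test (log2 change 0.26, limma adjusted p = 0.155). Its values were 71.0 and 85.6 in C1, 88.8 and 97.4 in C11, 96.4 and 99.5 in C43 and 42.6 and 71.5 in C50 in GFP-negative cells and 73.1 and 75.6 in C1, 91.8 and 97.3 in C11, 112 and 108 in C43 and 112 and 97.8 in C50 in GFP-positive cells. Those of C1 and C11 overlapped, those of C43 and C50 were higher in the positive fraction, and under median-ratio scaling Slc1a5 was called higher (0.34, limma adjusted p = 0.0142).

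Slc7a5 and Slc7a7 encode alternative light chains of Slc3a2 and moved in opposite directions. Slc7a5, the leucine carrier, was 101 and 121 in C1, 59.8 and 88.7 in C11, 87.1 and 70.5 in C43 and 15.6 and 55.8 in C50 in GFP-negative libraries (TPM). In GFP-positive libraries it was 57.8 and 63.2 in C1, 28.3 and 32.3 in C11, 33.8 and 28.9 in C43 and 22.1 and 20.7 in C50. In C1, C11 and C43 every positive library was below every negative one, and in C50 replicate 1 of the negative fraction was below both positive ones. Slc7a5 fell by 0.96 on the log2 scale (SE 0.205, limma adjusted p = 0.00203), and the change was −1.17 without that library. Slc7a7, which exports cationic in exchange for neutral amino acids, was 21.0 and 29.0 in C1, 40.5 and 44.5 in C11, 25.7 and 25.8 in C43 and 29.4 and 32.0 in C50 in GFP-negative and 45.2 and 41.5 in C1, 61.6 and 60.4 in C11, 42.0 and 44.5 in C43 and 60.5 and 64.5 in C50 in GFP-positive libraries. The fractions did not overlap in any clone, and the rise was 0.76 (SE 0.0813, limma adjusted p = 7.06e-06).

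Slc3a2, the shared heavy chain, did not pass the test between the fractions (log2 change 0.03, SE 0.051, limma adjusted p = 0.694). Its GFP-negative libraries read 1152 and 1106 in C1, 733 and 728 in C11, 735 and 716 in C43 and 705 and 686 in C50 (TPM), and its GFP-positive libraries 1154 and 1134 in C1, 709 and 714 in C11, 632 and 785 in C43 and 795 and 783 in C50. The fractions lay close to each other within each clone, with the positive pair above the negative one in C50, below it in C11 and astride it in C43. Under the 31 alternatives its log2 change ran from −0.03 to 0.11, with limma adjusted p from 0.284 to 0.919.

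**Figure D3:**
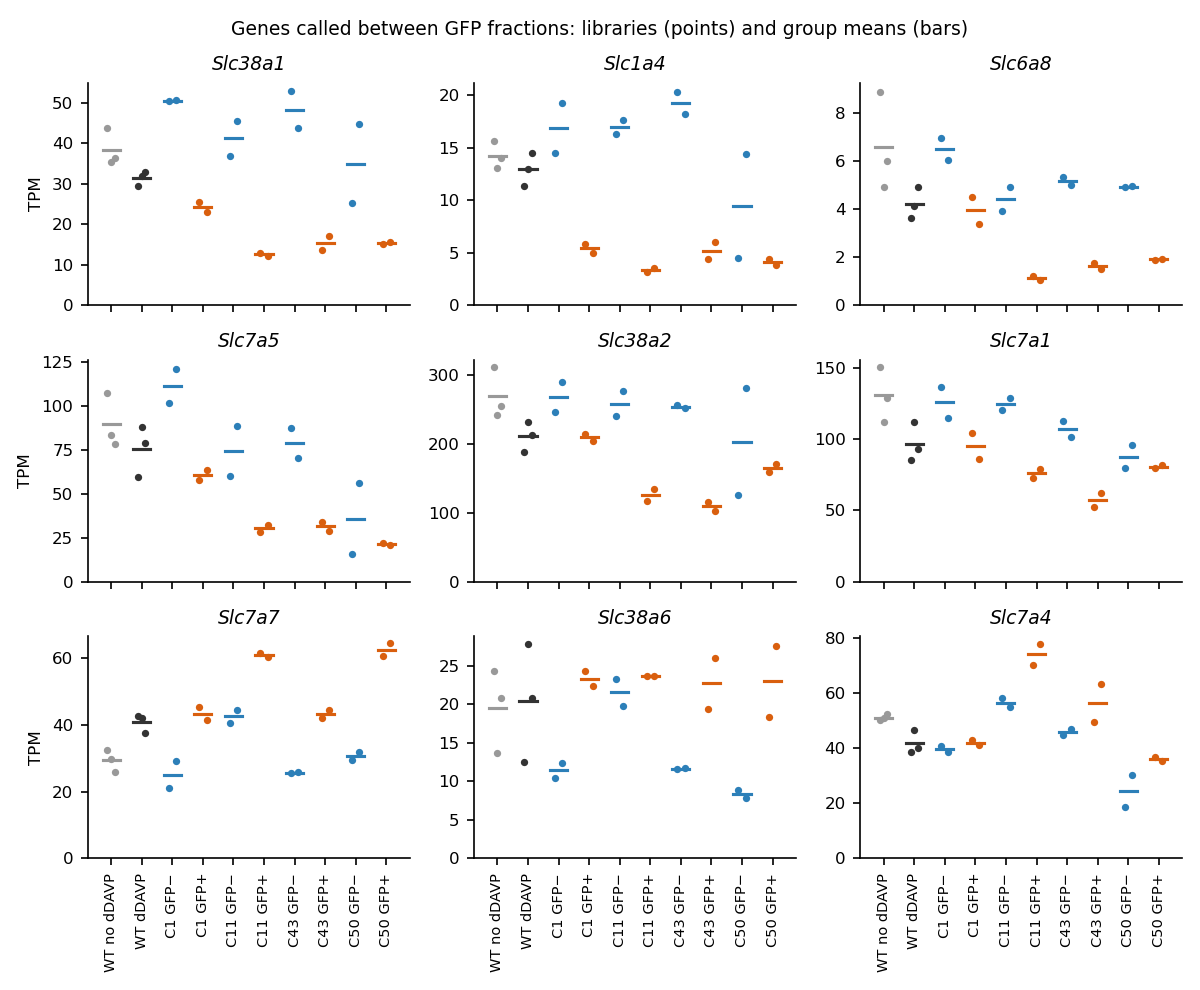
TPM of the 9 transporters called between GFP fractions, with points for libraries and horizontal bars for group means over WT cells without (grey) and with (black) dDAVP and the GFP-negative (blue) and GFP-positive (orange) fractions of 4 clones. In the upper 2 rows the orange points lie below the blue ones in most clones, with replicate 1 of GFP-negative C50 as a low blue point for Slc7a5, Slc38a2 and Slc1a4; in the bottom row the orange points lie above.

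The remaining light chain genes showed smaller differences. Slc7a6 had a log2 change of −0.37 (limma adjusted p = 0.137) and was called lower at −0.53 (limma adjusted p = 0.0022) without replicate 1 of GFP-negative C50. Slc7a11, the cystine carrier, had −0.17 (limma adjusted p = 0.454) and group means from 5.995 to 12.7 TPM. The light chain sum took in Slc7a5, Slc7a6, Slc7a7 and Slc7a11 and, at low levels, Slc7a8 (mean 0.228 TPM) and Slc7a10 (0.0191 TPM). It was 176 TPM in GFP-negative and 141 TPM in GFP-positive C1, 151 and 113 TPM in C11, 142 and 95.6 TPM in C43, and 94.3 and 116 TPM in C50 (means of 2 libraries). In GFP-negative C50 the sum was 64.8 TPM in replicate 1 and 124 TPM in replicate 2, so that without replicate 1 the negative fraction was the higher one in C50 too. Slc7a5 made up 62.9% and 63.6% of this sum in GFP-negative C1, 45.7% and 52.0% in C11, 56.2% and 54.6% in C43, and 24.2% and 45.1% in C50. In GFP-positive cells its share was 41.2% and 44.7% in C1, 25.6% and 27.95% in C11, 35.8% and 29.9% in C43, and 18.8% and 18.1% in C50. The share was lower in the positive fraction of each clone with no overlap, C50 included.

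In turn Slc7a7 made up 13.0% to 15.3% of the light chain sum in GFP-negative and 29.4% to 32.3% in GFP-positive C1. In C11 its share was 26.1% to 31.0% and 52.2% to 55.7%, and in C43 16.6% to 20.0% and 44.4% to 46.1%. In C50 it was 25.8% to 45.3% and 51.5% to 56.3%. The ratio of Slc7a7 to Slc7a5 TPM was below 1 in both GFP-negative libraries of C1, C11 and C43, and above 1 in both GFP-positive libraries of C11, C43 and C50. In GFP-positive C1 it stayed below 1, at 0.656 and 0.783, and in GFP-negative C50 it was 1.88 in replicate 1 and 0.573 in replicate 2. These shares are of transcripts and were described without a test of their own.

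**Figure D4:**
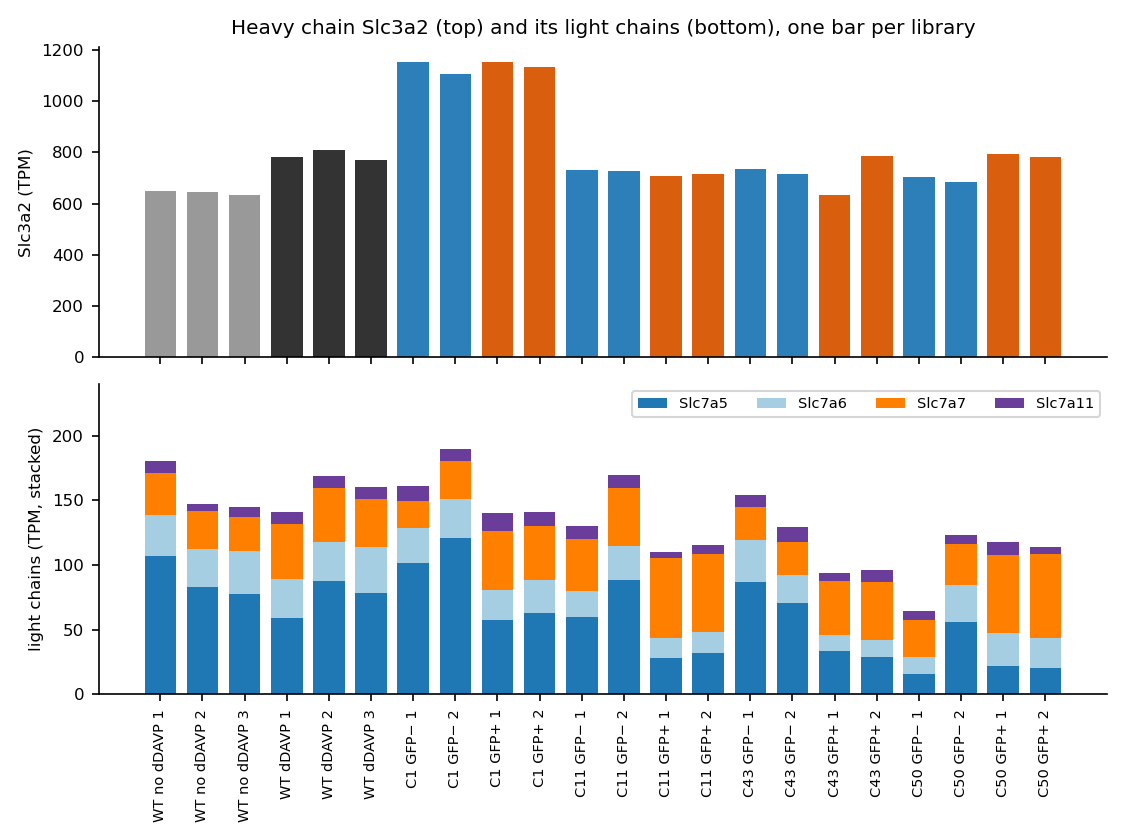
TPM per library of the heavy chain Slc3a2 (top) and of its light chains Slc7a5, Slc7a6, Slc7a7 and Slc7a11 stacked (bottom), with 1 bar per library; in the top panel WT cells without dDAVP are grey, WT cells with dDAVP black, GFP-negative clone cells blue and GFP-positive clone cells orange. Slc3a2 is highest in C1 at 1106 to 1154 TPM, and the Slc7a5 segment is smaller in the GFP-positive bars of C1, C11 and C43 and the Slc7a7 segment larger in those of all 4 clones.

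Slc7a1 and Slc7a4 belong to the cationic amino acid transporter branch of the family, which needs no heavy chain; what Slc7a4 carries is less clear. Slc7a1 read 137 and 115 in C1, 121 and 129 in C11, 113 and 101 in C43 and 79.6 and 96.1 in C50 in GFP-negative libraries (TPM). The GFP-positive libraries read 105 and 86.4 in C1, 72.9 and 79.0 in C11, 52.1 and 62.6 in C43 and 79.6 and 81.8 in C50. It fell by 0.53 on the log2 scale (SE 0.103, limma adjusted p = 0.00106), with no overlap in C1, C11 and C43 and overlap in C50. Slc7a4 was 40.6 and 38.5 in C1, 58.2 and 54.8 in C11, 44.6 and 46.8 in C43 and 18.7 and 30.3 in C50 in GFP-negative and 42.8 and 41.0 in C1, 70.3 and 77.7 in C11, 49.6 and 63.4 in C43 and 36.9 and 35.5 in C50 in GFP-positive libraries. The positive libraries were the higher ones in each clone, by a small margin in C1. The rise of Slc7a4 was 0.33 (SE 0.0981, limma adjusted p = 0.0157), and it was not past the threshold without C11, without C43, with clone means as replicates, or within either set of libraries of like numbers of detected genes.

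Slc38a6 encodes a member of the Slc38 family whose substrates are less well described. Its GFP-negative libraries read 10.5 and 12.4 in C1, 23.4 and 19.8 in C11, 11.6 and 11.8 in C43 and 8.83 and 7.86 in C50 (TPM), and its GFP-positive libraries 24.4 and 22.3 in C1, 23.8 and 23.7 in C11, 19.4 and 26.0 in C43 and 18.4 and 27.6 in C50. In C1, C43 and C50 the positive values were well above the negative ones, and in C11 the margin was narrow. The rise of Slc38a6 was 0.83 on the log2 scale (SE 0.146, limma adjusted p = 0.00047). The ratio of Slc38a6 to Slc38a1 TPM was 0.226 in GFP-negative and 0.961 in GFP-positive C1, 0.534 and 1.90 in C11, 0.244 and 1.48 in C43, and 0.263 and 1.49 in C50 (means of 2 libraries).

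In the Slc6 family, Slc6a8 imports creatine, the store of high-energy phosphate. Its GFP-negative libraries read 6.95 and 6.05 in C1, 3.91 and 4.92 in C11, 5.34 and 5.00 in C43 and 4.92 and 4.93 in C50 (TPM), and its GFP-positive libraries 4.50 and 3.38 in C1, 1.21 and 1.05 in C11, 1.76 and 1.52 in C43 and 1.89 and 1.92 in C50. No clone showed an overlap, and Slc6a8 fell by 1.05 on the log2 scale (SE 0.118, limma adjusted p = 1.08e-05). The taurine carrier Slc6a6 did not pass the test (0.24, limma adjusted p = 0.0918), with 168 and 186 in C1, 217 and 222 in C11, 214 and 206 in C43 and 108 and 164 in C50 in GFP-negative and 266 and 255 in C1, 197 and 222 in C11, 202 and 206 in C43 and 200.5 and 187 in C50 in GFP-positive libraries. In C1 and C50 its positive libraries were the higher ones, in C11 the fractions overlapped, and in C43 the positive libraries were the lower ones by a narrow margin. Under median-ratio scaling and under quantile normalization Slc6a6 was called higher, at 0.32 (limma adjusted p = 0.00421) and 0.28 (limma adjusted p = 0.04).

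The glycine carrier Slc6a9 (log2 change −0.54, limma adjusted p = 0.0913), Slc6a17, a vesicular carrier known from neurons (0.06), and Slc6a19, the apical neutral amino acid carrier of proximal tubule and gut (−0.02), were not called. Nor were the lysosomal glutamine carrier Slc38a7 (−0.20), the lysosomal arginine carrier and sensor Slc38a9 (0.02), Slc38a10 (0.19), Slc36a1 (0.11) and the large neutral amino acid carrier Slc43a2 (0.44). Slc38a10 was 67.4 and 83.9 in C1, 76.6 and 83.7 in C11, 58.7 and 67.6 in C43 and 17.3 and 74.3 in C50 in GFP-negative and 64.6 and 67.5 in C1, 70.8 and 87.6 in C11, 65.0 and 53.9 in C43 and 81.8 and 73.0 in C50 in GFP-positive libraries (TPM). Its fractions overlapped in each of the 4 clones, and the one low value was replicate 1 of GFP-negative C50. Within C50 the change of Slc38a10 was 1.07 with all libraries and 0.05 without that library, and that of Slc43a2 was 1.16 and 0.28. In C1, C11 and C43 the changes were −0.18, −0.02 and −0.09 for Slc38a10 and −0.22, 0.52 and 0.30 for Slc43a2.

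Counted by overlap alone, 6 of the 22 genes (27.3%) had fractions that did not overlap and differed in the same direction in all 4 clones, against 18.9% of all genes tested. The 3 higher ones were Slc7a7, Slc38a6 and Slc7a4 and the 3 lower ones Slc38a1, Slc1a4 and Slc6a8, where 6.72% and 12.2% of all genes tested did so. Without replicate 1 of GFP-negative C50 the number called was 12, 3 higher and 9 lower (46% of all genes tested, 13.4% higher and 32.6% lower), with Slc7a6, Slc38a7 (−0.34, limma adjusted p = 0.0483) and Slc6a9 (−0.75, limma adjusted p = 0.00129) added. Under median-ratio scaling or quantile normalization 12 were called, 6 higher and 6 lower (35.7% and 38.7% of all genes tested), which kept the 9 genes and added Slc6a6, Slc1a5 and Slc43a2. Within the libraries with fewer genes detected 0 of 22 passed limma's adjusted threshold (1.96% of all genes tested did). There 6 of 22 had an unadjusted p under 0.05, a threshold at which the share of all genes was not counted. Within those with more genes detected 10 passed (29.9% of all genes tested), 7 of them among the 9. Of the 9, Slc38a6 (0.77) and Slc7a4 (0.24) were the 2 that did not.

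Markers of proliferation and of principal cells moved with the fractions. All 12 listed proliferation genes were measured, 11 of 12 were lower in GFP-positive cells (23.2% of all genes tested), and their summed level was 1689 to 2261 TPM in GFP-negative and 859 to 1806 TPM in GFP-positive libraries. Within single clones 1 of 12 was called lower in C1 (4.91% of all genes tested), 9 in C11 (5.7%), 11 in C43 (12%) and 11 in C50 (13.8%). In C1 the sums were 1914 to 1961 TPM in GFP-negative and 1756 to 1806 TPM in GFP-positive libraries. Of 13 tested principal cell markers 9 were higher (12.1% of all genes tested) and 1 was lower (Aqp3), with sums of 10255 to 12695 TPM and 15569 to 23804 TPM. Most of the principal cell sum was Krt18 (mean of 7926 TPM over 22 libraries) and Aqp2 (2201 TPM). The summed proximal tubule list, in which Slc34a1 and the other defining carriers had means under 1 TPM, was 0.94 to 13.4 TPM in GFP-negative and 4.02 to 16.8 TPM in GFP-positive libraries. The part of these in the transporter differences was not tested.

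Each clone was then examined alone, with the spread shared over the 8 clone groups. In C1, 4 of 22 transporters were called (2 higher, 2 lower) against 7.22% of all genes tested (2.31% higher, 4.91% lower): Slc7a7 (0.79) and Slc38a6 (0.97) were higher, Slc38a1 (−1.03) and Slc1a4 (−1.47) lower. In C11, 5 were called and each was lower (7.94% of all genes tested, 2.23% higher and 5.7% lower): Slc1a4 (−2.06), Slc38a1 (−1.63), Slc6a8 (−1.34), Slc38a2 (−1.03) and Slc7a1 (−0.71). The largest number was 9 in C43 (2 higher, 7 lower, against 4.29% and 12% and 16.3% in all), where Slc7a6 (−1.01) and Slc6a9 (−1.33) were called beside genes of the joint comparison. In C50, 7 were called (5 higher, 2 lower, against 12.8% and 13.8% and 26.6% in all), with Slc1a5 (0.91), Slc6a6 (0.54), Slc7a4 (0.58), Slc7a7 (1.00) and Slc38a6 (1.34) higher and Slc38a1 (−1.08) and Slc6a8 (−1.03) lower. Slc38a1 was the one transporter called in each of the 4 clones, but the calls in C1 were fragile. On leaving out 1 of the 4 C1 libraries in turn, Slc38a1 (limma adjusted p 0.0872 to 0.136) and Slc1a4 (0.11 to 0.19) lost their call each time, Slc38a6 in 3 of 4 and Slc7a7 in 2 of 4, all with the direction kept. With replicate 1 of GFP-negative C50, which enters the shared spread, left out, the numbers became 6 in C1 (15.9% of all genes tested), 9 in C11 (17.7%) and 11 in C43 (29.6%).

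The values within C50 depended on which negative library was kept. Slc38a2 was −0.76 (limma adjusted p = 0.00222) without replicate 1 and 0.39 (limma adjusted p = 0.0295) without replicate 2. With replicate 2 left out 15 transporters were called, where 52.2% of all genes tested were called, and with replicate 1 left out 8, where 23.7% were. Without replicate 1 Slc7a4 (0.25) and Slc6a6 (0.24) were no longer called, and Slc7a5 (−1.34), Slc1a4 (−1.61) and Slc38a2 were called lower. Slc7a7, Slc38a6, Slc1a5, Slc38a1 and Slc6a8 kept their direction and call with either library left out, though Slc1a5 went from 0.91 to 0.54 without replicate 1. A lone library in a fraction was assumed to vary like the other groups.

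Whether the fraction difference itself varied from clone to clone was tested by the interaction of clone and fraction. By limma's moderated F-test 0 of 22 transporters passed the adjusted threshold (0.869% of all genes tested did), and 5 had an unadjusted p under 0.05: Slc38a6 (0.00838), Slc7a1 (0.0131), Slc1a5 (0.0156), Slc6a6 (0.0202) and Slc6a9 (0.0397). The share of all genes at the unadjusted threshold was not counted. In 8 other settings that kept all libraries 0 were called. Without replicate 1 of GFP-negative C50 the number was 2 (2.49% of all genes tested), Slc38a2 (limma adjusted p = 0.0479) and Slc6a6 (limma adjusted p = 0.0333). Without replicate 2 of that fraction it was 16, where 38.6% of all genes tested were called.

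The next comparison concerned differences between the clones whatever the fraction. Of the 22 genes 6 were called by limma's F-test, Slc3a2, Slc7a4, Slc6a19, Slc7a7, Slc7a5 and Slc6a8, against 28% of all genes tested. Without replicate 1 of GFP-negative C50 14 were called, where 44.8% of all genes tested were. Clone C1 against the mean of the other 3 gave 7 calls (25.8% of all genes tested, 13.1% higher and 12.7% lower): Slc3a2 (0.65, SE 0.0589, limma adjusted p = 2.74e-06), Slc7a5 (1.05), Slc6a19 (1.35), Slc6a8 (0.66), Slc38a1 (0.52) and Slc7a1 (0.34) were higher and Slc7a7 (−0.35) lower. Slc3a2 was 1106 TPM or more in all 4 libraries of C1 and 795 TPM or less in every library of the other clones. In C11, 3 were called (6.54% of all genes tested, 4.19% higher and 2.35% lower), Slc7a4 (0.70) and Slc7a7 (0.48) higher and Slc3a2 (−0.23) lower. C43 differed in Slc3a2 (−0.24), the 1 call there (8.24% of all genes tested, 4.71% higher and 3.53% lower). C50 was lower in 3 genes (9.3% of all genes tested, 2.94% higher and 6.36% lower), Slc7a5 (−1.16), Slc7a4 (−0.78) and Slc6a19 (−0.70). In the contrasts of C11, C43 and C50 the mean of the others includes C1, the high clone for Slc3a2, Slc7a5 and Slc6a19: the clone means of Slc3a2 were 1137 TPM in C1 against 721 in C11, 717 in C43 and 742 in C50. Without replicate 1 of the negative fraction of C50 Slc7a5 (−0.74) and Slc7a4 (−0.61) were still called in C50, Slc6a17 was called higher (0.47) and Slc6a19 was not called, and the numbers in C1, C11 and C43 became 13, 5 and 6 (37.2%, 12.9% and 23.8% of all genes tested).

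Slc6a19 is known as a carrier of the proximal tubule brush border. It read 11.3 and 7.94 in C1, 2.39 and 3.03 in C11, 3.85 and 4.07 in C43 and 1.49 and 2.12 in C50 in GFP-negative and 6.80 and 8.98 in C1, 2.33 and 4.00 in C11, 4.00 and 1.51 in C43 and 3.16 and 2.78 in C50 in GFP-positive libraries (TPM). In WT cells it was 5.41, 6.51 and 6.57 TPM without dDAVP and 4.57, 4.41 and 3.30 TPM with it. C1 was the high clone in both fractions, with group means of 9.62 and 7.89 TPM (n = 2). The proximal tubule markers summed to 0.94 to 4.25 TPM in C1 and to 4.30 to 16.8 TPM in the other 3 clones, most of it Lrp2, and the part of other cell types in these values was not tested.

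The WT comparison asked which transporters changed with dDAVP in cells without the reporter. Of the 22 transporters 2 were called (9.09%, against 8.88% of the 13494 genes tested), both higher, where 2.37% of all genes tested were higher and 6.51% lower. Slc3a2 was 648, 646 and 634 TPM without and 780.5, 808 and 772 TPM with dDAVP, means of 643 ± 7.29 and 787 ± 19.0 TPM (SD, n = 3). Slc7a7 was 32.4, 29.9 and 26.0 TPM without and 42.8, 42.0 and 37.6 TPM with dDAVP. Neither gene's groups overlapped. The rise was 0.29 for Slc3a2 (SE 0.0559, limma adjusted p = 0.0254) and 0.46 for Slc7a7 (SE 0.107, limma adjusted p = 0.0427), against a median of −0.16 over all genes tested and −0.14 over the 22 transporters. Each of the 2 calls was lost in 10 of 15 alternatives, with limma adjusted p up to 0.323 for Slc3a2 and 0.259 for Slc7a7, while their log2 changes stayed between 0.15 and 0.46 and between 0.34 and 0.64.

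The other 20 transporters did not pass the test with dDAVP. An unadjusted limma p under 0.05 was found for 10 of the 22, and the share of all genes at that threshold was not counted. In 10 of 22 genes (45.5%) the WT groups did not overlap, 2 higher and 8 lower, against 35.8% of all genes tested. Among the large carriers, Slc38a2 was 311, 241 and 255 TPM without and 187, 232 and 213 TPM with dDAVP (−0.35, limma adjusted p = 0.103). Slc7a1 was 151, 112 and 129 and 85.5, 112 and 93.0 TPM (−0.43, limma adjusted p = 0.0904). For both, every value with dDAVP lay below every value without it, in Slc7a1 by a margin that disappears on rounding.

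Slc7a5 was 107, 83.3 and 78.03 TPM without and 59.2, 87.6 and 78.7 TPM with dDAVP, and its groups overlapped (−0.25, limma adjusted p = 0.346). Slc7a4 was 50.1, 50.7 and 52.2 and 38.7, 46.6 and 39.9 TPM (−0.29, limma adjusted p = 0.087). Slc38a1 was 43.7, 35.2 and 36.3 and 29.4, 31.9 and 32.9 TPM (−0.28, limma adjusted p = 0.127). For Slc7a4 and Slc38a1 alike the values with dDAVP lay below those without. The creatine carrier Slc6a8 was 8.84, 4.91 and 5.97 and 3.61, 4.12 and 4.90 TPM (−0.51, limma adjusted p = 0.158) and its groups touched without overlapping, and the lysosomal Slc38a9 had −0.54 (limma adjusted p = 0.0624).

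Several carriers showed no separation between the WT groups. Slc6a6 was 207, 159 and 174 TPM without and 173, 219.6 and 178 TPM with dDAVP. Slc1a5 was 89.9, 96.1 and 89.5 and 79.3, 97.3 and 88.2 TPM. For these and for Slc1a4 (15.6, 13.1 and 14.0 and 11.4, 13.0 and 14.6 TPM) and Slc38a6 (24.3, 13.7 and 20.8 and 12.5, 27.9 and 20.9 TPM) the groups overlapped. Slc38a10 ran at 93.3, 96.8 and 81.8 TPM without and 71.9, 92.2 and 71.1 TPM with dDAVP, with overlap. The ratio of Slc3a2 to the light chain sum was 4.11 ± 0.46 without and 5.03 ± 0.43 with dDAVP (SD, n = 3), and the share of Slc7a7 in that sum ran from 17.9% to 20.2% and from 23.4% to 30.3%. That of Slc7a5 ran from 53.9% to 59.1% and from 42.0% to 51.6%.

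When detected genes entered the model as a covariate, 7 transporters were called with dDAVP (20% of all genes tested, 3.95% higher and 16% lower), Slc3a2 and Slc7a7 higher and Slc38a2, Slc7a1, Slc7a5, Slc6a17 and Slc38a9 lower. Median-ratio scaling moved the median change of all genes from −0.16 to −0.000386 and kept the 2 calls (Slc3a2 0.46, Slc7a7 0.63). Relative to the median of all genes, the changes as deposited were 0.45 for Slc3a2, 0.62 for Slc7a7, −0.19 for Slc38a2 and −0.10 for Slc7a5. Quantile normalization kept Slc7a7 alone. Summed proliferation markers were 2138 to 2180 TPM without and 1440 to 1657 TPM with dDAVP, and summed principal cell markers 8393 to 8789 and 15041 to 15665 TPM; their part in these values was not tested. Slc7a7 was the one transporter called higher both with dDAVP in WT cells and in the GFP-positive fraction, and these comparisons share no libraries.

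Other genes of amino acid supply were counted in lists chosen for their roles. Of 23 tested genes of the amino acid response, which includes Atf4 targets for serine, proline and asparagine synthesis, 16 (69.6%) were lower in GFP-positive cells and 0 higher by limma, where 23.2% of all genes tested were lower and 12.1% higher, with a median change of −0.80 (all genes −0.06). Largest were Trib3, a pseudokinase target of Atf4 (137 and 23.1 TPM, log2 change −2.42), Ddit4, an inhibitor of mTORC1 (23.3 and 6.05 TPM, −1.76), and the serine synthesis enzyme Psph (31.0 and 9.92 TPM, −1.58), as means of 8 libraries in GFP-negative and GFP-positive cells. Atf4 itself was not called (774 and 744 TPM, −0.06). With dDAVP in WT cells 4 of the 23 were higher, Sesn2 (0.84), Chac1 (0.52), Cebpb (0.45) and Psat1 (0.33), and Atf3 was lower (−0.41), where 2.37% of all genes tested were higher and 6.51% lower, with a median of 0.08 against −0.16. In the clones, all of which had dDAVP, C1 had 13 lower genes (4.91% of all genes tested were lower), C11 had 12 (5.7%) and C43 had 14 (12%), and C50 had 10 lower (13.8%) and 2 higher (12.8%), or 14 lower (15.9%) and 2 higher (7.76%) without replicate 1 of its negative fraction.

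**Figure D5:**
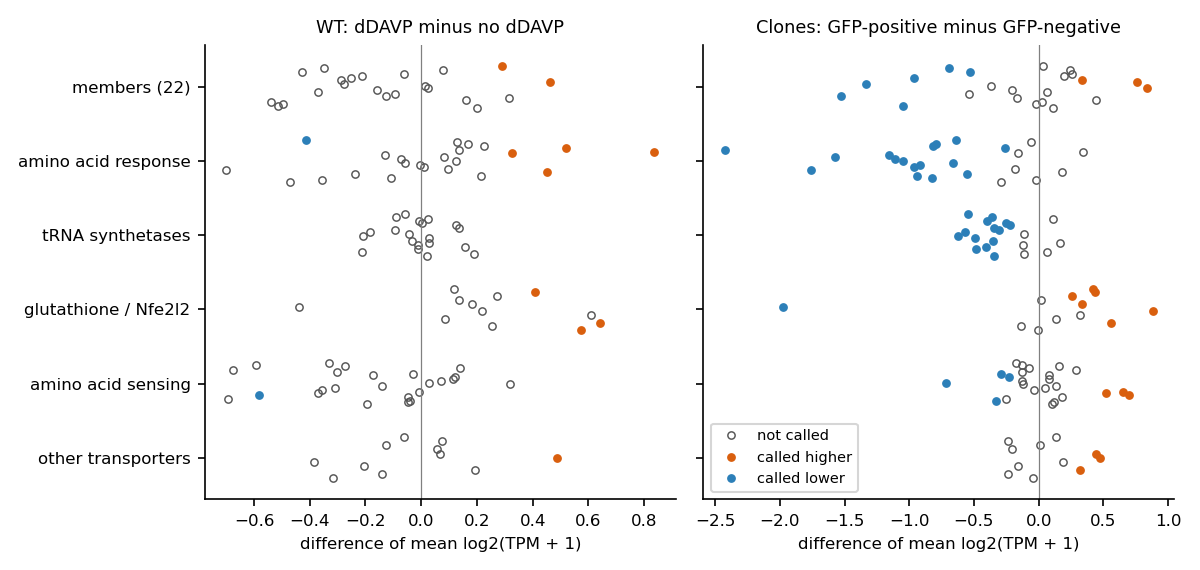
Difference of mean log2(TPM + 1) for the 22 transporters and for 5 lists of related genes, with dDAVP in WT cells (left) and between GFP-positive and GFP-negative clone cells (right, with a wider axis); filled points passed limma's adjusted p of 0.05. On the right 16 of 23 amino acid response genes and 14 of 20 tRNA synthetases are filled on the lower side, and on the left none of the 20 synthetases is filled.

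Of the 20 cytosolic tRNA synthetases, which charge tRNAs with amino acids, 14 (70%) were lower and 0 higher in GFP-positive cells by limma, against 23.2% and 12.1% of all genes tested, with a median of −0.35 and Lars (−0.62), Iars (−0.57) and Aars (−0.55) the largest. Under median-ratio scaling the counts were 13 lower and 2 higher, and for the amino acid response 15 lower and 1 higher, where 17.5% of all genes tested were lower and 18.2% higher. Without replicate 1 of GFP-negative C50 they were 17 of 20 and 17 of 23 lower, where 32.6% of all genes tested were lower. Within single clones fewer were lower, 1 in C1 (5%, against 4.91% of all genes tested), 3 in C11 (15%, against 5.7%), 8 in C43 (40%, against 12%) and 1 in C50 (5%, against 13.8%; 7 without replicate 1 of its negative fraction, against 15.9%). With dDAVP in WT cells 0 of 20 synthetases passed by limma, where 2.37% of all genes tested were higher and 6.51% lower, with a median of −0.01 against −0.16. Within the libraries with fewer genes detected the amino acid response had 3 lower and the synthetases 0 (1.21% of all genes tested were lower). An unadjusted limma p under 0.05 was found there for 14 of 23 and 2 of 20, and the share of all genes at that threshold was not counted. As given above, the proliferation list fell in the same fraction, with 1 of 12 called lower in C1 and 9, 11 and 11 in C11, C43 and C50.

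Of 12 genes of glutathione metabolism and of the antioxidant response of Nfe2l2 (glutathione is made from cysteine, which cells can obtain from the cystine that Slc7a11 brings in), 6 (50%) were higher and 1 (8.33%) lower in GFP-positive cells, against 12.1% and 23.2% of all genes tested. The lower one was Ggt1, the enzyme that splits extracellular glutathione (18.8 and 2.87 TPM, −1.97), and the highest rises were Nqo1 (0.88) and Srxn1 (0.56). Within clones 2 of 12 were higher in each of C1, C11 and C43 (2.31%, 2.23% and 4.29% of all genes tested). Lower there were 0, 1 and 1 (4.91%, 5.7% and 12%). In C50 7 were higher and 1 lower (12.8% and 13.8%). Without replicate 1 of GFP-negative C50 the joint counts stayed at 6 and 1 (13.4% and 32.6%), and the list median went from 0.29 to 0.12. With dDAVP in WT cells Srxn1 (0.64), Me1 (0.57) and Gclc (0.41) were higher. Of 24 tested genes of amino acid sensing by mTORC1, the kinase complex that Slc38a9 and the leucine supply feed into, 3 (12.5%) were higher and 4 (16.7%) lower in GFP-positive cells, near or below the 12.1% and 23.2% of all genes tested, Lamtor4 (−0.72), Sesn1 (0.70) and Castor1 (0.65) being the largest. Median-ratio scaling gave 5 higher and 1 lower in that list, where 18.2% of all genes tested were higher and 17.5% lower, and leaving out replicate 1 of GFP-negative C50 gave 3 higher and 5 lower (13.4% and 32.6%).

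Among 11 tested amino acid transporters of other families 3 were higher in GFP-positive cells, the mitochondrial aspartate and glutamate carriers Slc25a13 (0.47) and Slc25a12 (0.44) and the mitochondrial basic amino acid carrier Slc25a29 (0.32), and 0 were lower (12.1% and 23.2% of all genes tested). Without replicate 1 of GFP-negative C50 the counts were 3 higher and 3 lower (13.4% and 32.6%), the lower ones being Slc15a4 (−0.31), Slc25a22 (−0.24) and Slc25a38 (−0.23). Slc25a13 was higher with dDAVP in WT cells as well (0.49). Of the osmolyte genes, which include the transporters Slc6a6 and Slc6a12, 2 of 5 tested were lower in GFP-positive cells, the sorbitol-forming enzyme Akr1b3 (236 and 102 TPM, −1.21) and the chaperone Hspa4l (−0.76), and 0 were higher (23.2% and 12.1% of all genes tested). Under median-ratio scaling 2 of the 5 were called higher as well (18.2% of all genes tested), the myo-inositol carrier Slc5a3 (0.66) and Slc6a6, and likewise under quantile normalization (Slc5a3 0.68; 19.5% of all genes tested). Slc5a3 was also called higher without replicate 1 of GFP-negative C50 (0.37, limma adjusted p = 0.0261; 13.4% of all genes tested were higher). Nfat5, the transcription factor of the osmotic response, was lower with dDAVP in WT cells (47.3 and 22.7 TPM, −1.04, limma adjusted p = 0.0435) and not called between the fractions (0.18). The betaine carrier Slc6a12 was tested in the WT comparison alone and was not called there (−0.76, limma adjusted p = 0.104).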

How the data were processed

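RNA-seq of 22 mpkCCD libraries in 10 groups was analysed. Per the labels' protocols, cDNA was made with the SMART-Seq HT kit and libraries with Nextera XT. The submitters' processing notes name STAR and RSEM; versions, genome build and annotation are not given in the sources used here. The authors deposited TPM per gene and library, which keep no depth, so precision rests on the spread of replicates. The authors also deposited group means and ratios of group means; the means served as a check of the column mapping and the ratios were not used. Symbols shared by several lines were summed (980 lines, 79 symbols, 54514 entries left), and 1 deposited column was not used. Genes averaging 1 TPM or more in a comparison were tested on log2(TPM + 1) with limma 3.58.1 in R 4.3.3 (mean-variance trend, two-sided, Benjamini-Hochberg over all genes tested). The fits were also run on simulated data, and the outcome is not given here. Tables were handled in Python 3.11.15 with pandas 2.3.3.

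The transporters and lists were chosen with earlier results of these data known. Library values are given for Slc3a1, Slc3a2, the 10 transporters of highest mean, transporters called with dDAVP or between fractions, and the 6 called between clones; lists by counts with up to 3 examples of largest change. Further genes named in groups of 5 or fewer were named after their values were seen. Alternatives were another pseudocount, filters, scalings, no trend, detected genes as a covariate, a replicate block, sets of libraries, clone means and leave-outs.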

Additional observations from a re-analysis of the deposited data

How the results depend on the processing

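With dDAVP in WT cells the 2 called transporters became 0 with no filter on low TPM (1.16% of all genes tested), 0 with no mean-variance trend (5.12%), 0 within the libraries with more genes detected (0.728%), 1 under quantile normalization (6%) and 7 with detected genes as a covariate (20%), and leaving out 1 library gave 0 to 3 (2.31% to 15.2% of all genes tested). Within the set with fewer genes detected there was 1 WT library per group and no test. Between GFP fractions the count of 9 became 0 within the libraries with fewer genes detected (1.96%), and 9 to 12 on leaving out 1 library (31.8% to 46%), 12 being without replicate 1 of GFP-negative C50. Within clones, leaving out 1 library gave 0 to 6 in C1 (4 with all; 2.87% to 16% of all genes tested), 2 to 9 in C11 (5; 2.42% to 17.8%), 4 to 11 in C43 (9; 6.58% to 29.8%) and 4 to 15 in C50 (7; 13.7% to 52.2%), so the share of all genes moved as well. C1 had 2 with no filter (1.51%), and C11 had 8 under quantile normalization (9.03%). The interaction had 0 to 16 (0; 0.319% to 38.6%) and the clone test 6 to 14 (6; 20.9% to 44.8%). The cause of these shifts was not tested. Of 308 values for the single genes called with dDAVP or between fractions 0 changed sign, 272 kept their call and 36 lost it. Slc3a2, not called between fractions, was below 0 in 3 settings, and within C50 Slc38a2 had opposite signs by which GFP-negative library was kept (−0.76 and 0.39). The counts for lists by setting and for single clones against the others without replicate 1 of GFP-negative C50 were chosen after seeing the data. Same-numbered libraries did not deviate together (correlations of −0.208, −0.0254 and −0.109 in WT and 0.0151 to 0.203 in the clones; 0 of 3 WT numbers correlated best with their own), so numbers were not taken as pairs. With the replicate block the count was 0 with dDAVP (0.904% of all genes tested), 9 between the fractions (32.5%) and 1 in C1 (4.69%). The number of libraries, 2 or 3 per group, limits the precision, and sequencing depth is unknown.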
